A study of Homo sapiens with 9 samples.

Results

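A set of 10 genes of cell-cell junctions was followed in PaTu 8988t, an established human cell line of pancreatic adenocarcinoma, among 58735 genes listed in both deposited tables: CDH1, CDH2, CDH3, CTNNB1, CTNNA1, JUP, DSP, TJP1, CLDN23 and EPCAM. The genes were found by symbol, each symbol stood on a single row, and all 10 genes were present. Of these 10 genes, 8 had a mean of at least 1 FPKM (fragments scaled to gene length and library depth) and entered the test with 11193 genes in all, while CDH1 and CDH3 lay under that level and are described by their values. The cells met 1 of 3 kinds of extracellular matrix, 3 libraries for each. These were a control matrix, a matrix holding wild-type CPXM2, a secreted member of the carboxypeptidase family, or a matrix with CPXM2 carrying the change R213A. All groups share the line, the medium (DMEM with FBS and penicillin/streptomycin), the TRIzol extraction and the stranded mRNA library kit. The cells are a single line, and the labels do not say whether replicates are separate cultures, so the p-values cover only variation among the libraries at hand, part or all of which can be technical. The study addressed how collagen aligned by CPXM2 affects gene expression in these cells.

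Cadherins are calcium-dependent adhesion receptors that bind cadherins on the neighbouring cell. Their cytoplasmic tail binds beta-catenin (CTNNB1) or plakoglobin (JUP), which in turn bind alpha-catenin (CTNNA1), the link to actin. Beta-catenin is also the transcriptional effector of Wnt signalling. Desmoplakin (DSP) anchors desmosomes to intermediate filaments, ZO-1 (TJP1) is a scaffold of tight junctions, claudins form the tight junction strands and EPCAM is an adhesion glycoprotein of epithelial cells. Carcinoma cells that lose E-cadherin (CDH1) and gain N-cadherin (CDH2) are described as having undergone a cadherin switch, and PaTu 8988t is known as a line without E-cadherin.

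The values came in 2 tables that may have been scaled separately. Number 1 of each group and R213A 3 form a table of 4 libraries. The remaining 5 libraries, numbers 2 and 3 of control and wild type with R213A 2, form the other. Group differences were formed within tables, and levels set side by side across tables are a description. R213A has 2 of its 3 libraries in the 4-library table, so its group means also carry the difference between the tables. Recovered totals ran from 15951927 to 18312806 reads. Control 2 stood apart from the other libraries of its table: in 9048 of 11193 genes (80.8%) it lay outside the range of the other 4 libraries, and so it did in 7 of the 8 tested junction genes. The epithelial keratins KRT8 and KRT18 had means of 153 and 348 FPKM, but KRT19 and KRT7 only 0.0217 and 0.229 FPKM. The mesenchymal genes VIM and ZEB1 had means of 138 and 3.85 FPKM, but FN1, SNAI2 and SPARC only 0.756, 0.389 and 0.0955 FPKM. Of 12 fibroblast, 7 immune and 8 endothelial markers 0, 0 and 1 reached a mean of 1 FPKM. The fibroblast gene FAP had 0 FPKM in all 9 libraries.

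The tables of RefSeq promoters (build GRCh38.p14) held windows for 6 of the genes, and the 250 bases before the start were searched for the E-box sequence CACCTG and its reverse complement CAGGTG, which are the letters bound by SNAI and ZEB repressors. Of 35116 windows of this length 17.5% held at least 1 match. Of the 14 windows of these 6 genes 3 held one: a window of JUP, the window of DSP and a window of TJP1. CTNNB1 and CTNNA1 had no match in their windows. CDH1, CDH3 and EPCAM had no entry, and the promoter of CLDN23 was not analysed here. Many of these windows overlap annotated exons of other isoforms, so only stretches outside every GENCODE 29 exon are printed: the window before an internal start of N-cadherin, which held no match, and the stretches of DSP and TJP1, each with 1 match, as examples of junction genes with an E-box. They read 5′ to 3′ on the gene's strand, with the matches in capitals. A match is a description of letters and not a bound site.
CDH2, chr18:28036642-28036891, minus strand: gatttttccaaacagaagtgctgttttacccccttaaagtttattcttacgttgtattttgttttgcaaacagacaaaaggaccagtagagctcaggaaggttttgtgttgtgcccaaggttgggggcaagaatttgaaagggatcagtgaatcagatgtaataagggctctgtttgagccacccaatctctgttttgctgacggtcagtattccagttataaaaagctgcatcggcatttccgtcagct
DSP, chr6:7541421-7541574, plus strand: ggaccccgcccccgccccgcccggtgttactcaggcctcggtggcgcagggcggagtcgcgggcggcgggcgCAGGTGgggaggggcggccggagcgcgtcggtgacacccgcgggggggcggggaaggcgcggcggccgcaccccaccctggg
TJP1, chr15:29969050-29969299, minus strand: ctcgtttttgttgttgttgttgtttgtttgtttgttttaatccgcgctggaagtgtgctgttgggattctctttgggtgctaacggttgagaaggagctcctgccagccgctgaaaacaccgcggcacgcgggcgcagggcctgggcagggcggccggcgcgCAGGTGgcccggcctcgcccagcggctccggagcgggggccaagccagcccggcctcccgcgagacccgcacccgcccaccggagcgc
The printed matches begin 178 bases before the RefSeq start in DSP and 88 bases before it in TJP1. A further match of DSP, 85 bases before the start, and those of JUP, at 54 and 43 bases, lie in annotated exons and are not printed. The repressor gene ZEB1 was at 1.07 (R213A 1) to 2.33 FPKM (wild type 1) in the 4-library table. In the 5-library table it was at 4.41 (wild type 3) to 9.01 FPKM (control 2). ZEB2 reached at most 0.00913 FPKM. SNAI1 stayed between 0.408 and 1.44 FPKM, SNAI2 between 0.0359 and 1.54 FPKM and SNAI3 between 0.3695 and 2.71 FPKM.

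N-cadherin stood far above E-cadherin and P-cadherin in all 9 libraries. CDH2 (ENSG00000170558, hg38 chromosome 18, 27950966 to 28177446, minus strand) was at 6.09, 14.7 and 15.0 FPKM in control 1 to 3, at 3.12, 14.0 and 13.5 FPKM in wild type 1 to 3 and at 2.20, 13.5 and 4.44 FPKM in R213A 1 to 3. The 5 libraries of the 5-library table lay between 13.5 and 15.0 FPKM and all 4 libraries of the other table lay at or under 6.09 FPKM, so the groups overlapped and the tables did not. The group means were 11.9 ± 5.06, 10.2 ± 6.12 and 6.70 ± 5.96 FPKM for control, then wild-type, then R213A matrix (SD, n = 3 per matrix). The ratio of the table means was 3.56, higher than for 94.0% of the tested genes, whose median ratio was 1.05. An FPKM value counts the RNA of the whole culture, so fewer cells with a transcript and less transcript per cell cannot be told apart.

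E-cadherin and P-cadherin were near the limit of detection. CDH1 (ENSG00000039068, chromosome 16, 68737225 to 68835548, plus strand) had 1, 13 and 15 reads in control 1 to 3, 0, 15 and 5 reads in wild type 1 to 3 and 3, 12 and 8 reads in R213A 1 to 3. Its highest level was 0.136 FPKM, in control 3, and the 0 reads of wild type 1 allow up to 3 reads or 0.0251 FPKM, for counting error only. CDH3, the P-cadherin gene next to CDH1 on the same strand (ENSG00000062038, chromosome 16, 68636189 to 68722616), had 7, 7 and 13 reads in control 1 to 3, 1, 19 and 14 reads in wild type 1 to 3 and 1, 15 and 5 reads in R213A 1 to 3. CDH2 was above both in all 9 libraries, with 148 to 1332 reads. The annotation GENCODE 29 lists antisense genes that share 347 exonic bases with CDH1 and 694 with CDH3, at means of 0 and 0.0580 FPKM, and since the strand setting of the counting is not given in the sources used here, the few reads of CDH1 and CDH3 remain uncertain. CDH2 shares 136 exonic bases with an antisense gene at a mean of 0.322 FPKM.

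**Figure D1:**
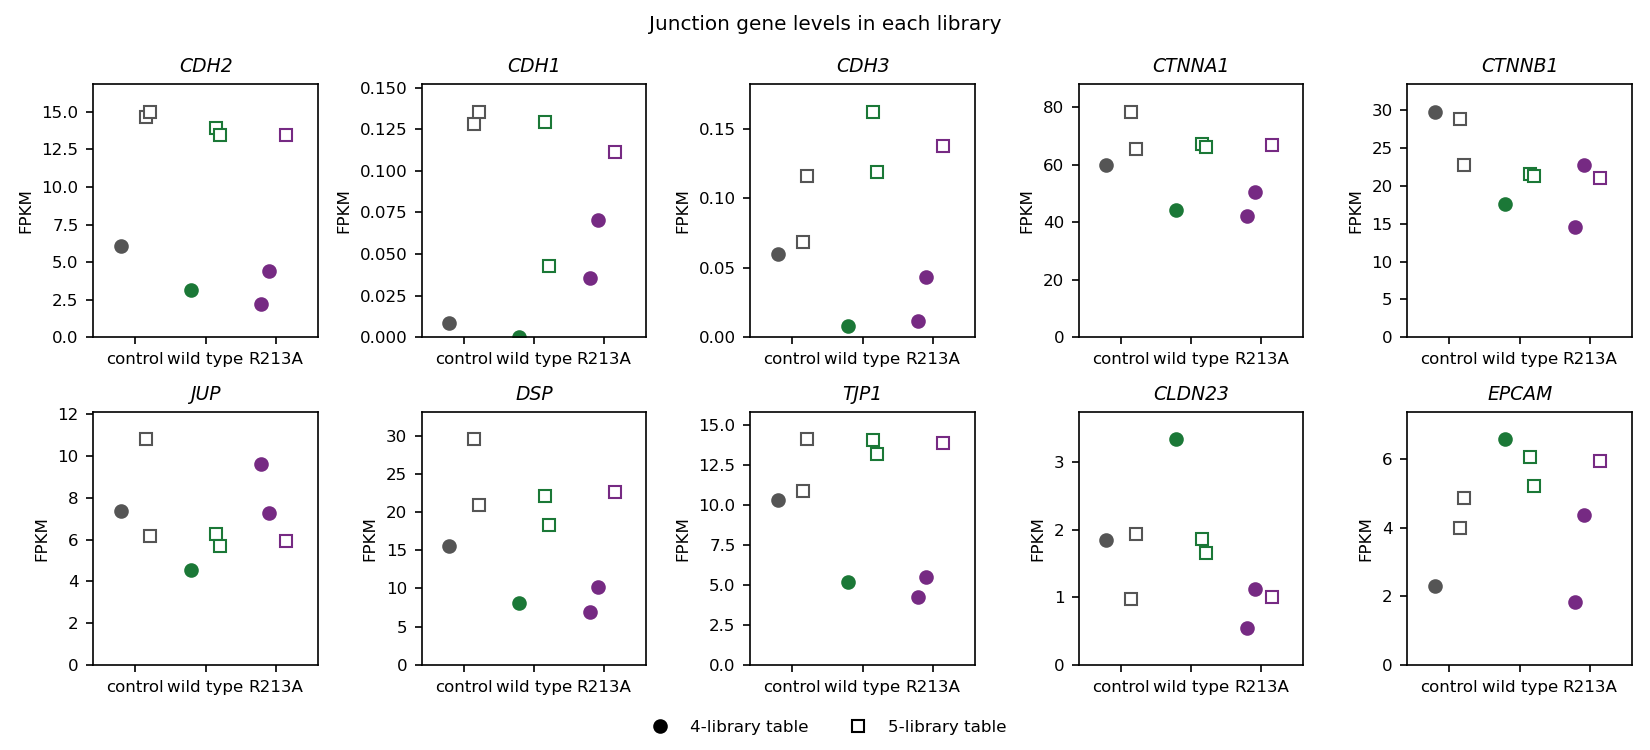
FPKM of the 10 junction genes in each of the 9 libraries, by matrix (grey control, green wild type, purple R213A); filled circles are libraries of the 4-library table and open squares those of the 5-library table, and each panel has its own linear axis from 0. CDH2 separates by table, from 2.20 to 6.09 and from 13.5 to 15.0 FPKM. CLDN23 lies higher in the 3 wild-type than in the 3 R213A libraries, as do 1.88% of all genes tested.

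Among the catenins, CTNNA1 was the most abundant of the 10 genes. CTNNA1, alpha-catenin (ENSG00000044115, chromosome 5, 138610967 to 138935034, plus strand), was at 59.8, 78.5 and 65.5 FPKM in control 1 to 3, at 44.4, 67.2 and 66.1 FPKM in wild type 1 to 3 and at 42.3, 66.8 and 50.4 FPKM in R213A 1 to 3. Control 2 was the highest library and R213A 1 the lowest, and the groups overlapped. LRRTM2 lies on the opposite strand within this gene and shares 445 exonic bases with it, but had a mean of only 0.0039 FPKM.

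CTNNB1, beta-catenin (ENSG00000168036, chromosome 3, 41194741 to 41260096, plus strand), was at 29.9, 28.8 and 22.7 FPKM in control 1 to 3, at 17.6, 21.6 and 21.4 FPKM in wild type 1 to 3 and at 14.6, 21.1 and 22.7 FPKM in R213A 1 to 3. The 3 control libraries stood above the 3 wild-type libraries, and above the 3 R213A libraries by a margin smaller than the rounding, since control 3 and R213A 3 both stood at 22.7 FPKM. Group means were 27.1 ± 3.85, 20.2 ± 2.25 and 19.5 ± 4.29 FPKM for control, then wild-type, then R213A matrix (SD, n = 3 per matrix). Of all genes tested, 2.39% had the wild-type libraries all below control and 2.1% the R213A libraries all below control. In contrast with CDH2, beta-catenin had similar means in the tables, with a ratio of 1.09.

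JUP, plakoglobin, which sits in both adherens junctions and desmosomes (ENSG00000173801, chromosome 17, 41754604 to 41786931, minus strand), was at 7.35, 10.8 and 6.18 FPKM in control 1 to 3, at 4.52, 6.27 and 5.68 FPKM in wild type 1 to 3 and at 9.63, 5.92 and 7.27 FPKM in R213A 1 to 3. Control 2 and R213A 1 were the high libraries and wild type 1 the low one, and the groups overlapped. Per length, JUP stood at 0.246 to 0.375 of the level of CTNNB1 in 8 libraries and at 0.659 in R213A 1, where beta-catenin was at its lowest.

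DSP, the desmosome anchor (ENSG00000096696, chromosome 6, 7541575 to 7586717, plus strand), was at 15.6, 29.5 and 20.9 FPKM in control 1 to 3, at 8.15, 22.2 and 18.3 FPKM in wild type 1 to 3 and at 6.97, 22.6 and 10.2 FPKM in R213A 1 to 3. TJP1, the scaffold protein ZO-1 (ENSG00000104067, chromosome 15, 29699367 to 29968865, minus strand), was at 10.3, 10.9 and 14.1 FPKM in control 1 to 3, at 5.18, 14.0 and 13.2 FPKM in wild type 1 to 3 and at 4.26, 13.9 and 5.49 FPKM in R213A 1 to 3. Both genes stood higher in every library of the 5-library table than in any of the other table, as did CDH2 and CTNNA1. This separation held for 30.3% of all genes tested. In control 2, DSP was at 1.41 times and TJP1 at 0.788 times the mean of the other 4 libraries of its table.

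CLDN23, a claudin with few reads (ENSG00000253958, chromosome 8, 8701938 to 8704106, plus strand), was at 1.84, 0.983 and 1.93 FPKM in control 1 to 3, at 3.34, 1.87 and 1.66 FPKM in wild type 1 to 3 and at 0.544, 1.00 and 1.13 FPKM in R213A 1 to 3. The wild-type libraries all stood above the R213A libraries, as in 1.88% of all genes tested, and the control libraries spanned the gap between them. The means were 1.59 ± 0.524, 2.29 ± 0.915 and 0.891 ± 0.308 FPKM for control, then wild-type, then R213A matrix (SD, n = 3 per matrix). Reads ran from 16 in R213A 1 to 140 in wild type 1.

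EPCAM, the epithelial adhesion glycoprotein (ENSG00000119888, chromosome 2, 47345158 to 47387601, plus strand), was at 2.31, 3.99 and 4.88 FPKM in control 1 to 3, at 6.57, 6.05 and 5.21 FPKM in wild type 1 to 3 and at 1.84, 5.95 and 4.36 FPKM in R213A 1 to 3. The 3 wild-type libraries stood above the 3 control libraries, a pattern seen in 2.17% of all genes tested, while R213A overlapped both. Means were 3.72 ± 1.30, 5.95 ± 0.685 and 4.05 ± 2.07 FPKM for control, then wild-type, then R213A matrix (SD, n = 3 per matrix). EPCAM is also 1 of the 8 epithelial keratin and surface genes. Their summed level ran from 351 to 729 FPKM on control, from 344 to 502 on wild-type and from 342 to 951 on R213A matrix. Nearly all of this sum was KRT8 and KRT18, with means of 153 and 348 FPKM against 4.57 FPKM for EPCAM. The part of the sum in the EPCAM values was not tested.

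By median over the 9 libraries the levels ran in the order CTNNA1 (65.5 FPKM), CTNNB1 (21.6), DSP (18.3), CDH2 (13.5), TJP1 (10.9), JUP (6.27), EPCAM (4.88), CLDN23 (1.66), CDH1 (0.0704) and CDH3 (0.0684). Several neighbours were not separated beyond the spread between libraries. CTNNB1 was above DSP in 6 of 9 libraries, TJP1 above JUP in 7, JUP above EPCAM in 7 and CDH2 above TJP1 in 3. CTNNA1 was above CTNNB1 in all 9 libraries, at 2.00 to 3.17 times its level. The ratio of beta-catenin to N-cadherin differed between the tables, at 4.90 to 6.63 in the smaller table and 1.51 to 1.97 in the larger.

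The first comparison asked whether junction genes differed between wild-type CPXM2 matrix and control matrix. The N-cadherin, catenin, desmoplakin and ZO-1 genes lay lower on wild-type matrix, and EPCAM and CLDN23 lay higher, but none of these differences passed the test. On the log2(FPKM + 1) scale, which understates the change of low genes, DSP differed by -0.48 ± 0.23 (SE, 3 libraries a group; 95% interval -1.0 to 0.035; limma adjusted p = 0.757) and EPCAM by 0.59 ± 0.28 (interval -0.045 to 1.23; limma adjusted p = 0.757). The difference was -0.47 for JUP, -0.41 for CTNNB1, -0.33 for CDH2, -0.21 for CTNNA1, -0.21 for TJP1 and 0.33 for CLDN23, all with intervals that include 0. For CDH2 the interval ran from -0.85 to 0.19. In all, 6 of 8 genes lay lower, where 53.7% of all genes did. Of the 8 genes 5 lay lower in both tables and 2 higher, against 28.8% and 22.5% of all genes, and the median of the 8 was -0.27 against -0.028 over all genes tested.

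limma called 0 of the 8 genes, and 0 of 11193 genes overall (0%), with 503 genes at an unadjusted p under 0.05 (4.49%) and 0 of the 8 among them. limma-voom on the recovered reads also called 0 genes, with 425 at an unadjusted p under 0.05 (3.8%). The differences were larger between wild type 1 and control 1 than in the other table. With those libraries DSP stood at -0.86, TJP1 at -0.87, CDH2 at -0.78 and EPCAM at 1.19, and the 5-library values were -0.29, 0.13, -0.11 and 0.29. Without control 2 these values of the 5-library table were -0.055, -0.048, -0.12 and 0.17. After correction of each library for gene length, TJP1, CTNNA1 and CTNNB1 stood at -0.067, -0.098 and -0.26 in the fit over both tables. CDH2, DSP and JUP then stood at -0.29, -0.35 and -0.43, and CLDN23 and EPCAM at 0.23 and 0.51.

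The second comparison set R213A matrix against control matrix, whose libraries also serve the first comparison. Here 7 of 8 genes lay lower, against 51.9% of all genes, with EPCAM the exception, and none of the 8 passed. CLDN23 differed by -0.53 ± 0.24 (SE, 3 libraries a group; 95% interval -1.07 to 0.013; limma adjusted p = 0.690). The difference was -0.45 for DSP, -0.44 for CTNNB1, -0.41 for CDH2, -0.35 for TJP1, -0.21 for CTNNA1, -0.068 for JUP and 0.19 for EPCAM, with limma adjusted p of 0.690 to 0.925. The median over the 8 genes was -0.38, against -0.016 over all genes tested.

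limma called 0 of 11193 genes in this comparison (0%), with 341 at an unadjusted p under 0.05 (3.05%) and 0 of the 8 among them, and limma-voom called 0, with 214 unadjusted (1.91%). Of the 8 genes 5 lay lower in both tables and 1 higher, against 27.1% and 21.6% of all genes. In the 4-library table TJP1 stood at -0.95, DSP at -0.81, CDH2 at -0.76, CTNNB1 at -0.68, CLDN23 at -0.65 and JUP at 0.17. In the 5-library table, with R213A 2 alone, the same genes stood at 0.15, -0.13, -0.13, -0.27, -0.27 and -0.41. Without control 2, which leaves R213A 2 against control 3, they stood at -0.021, 0.10, -0.15, -0.10, -0.55 and -0.054. Plakoglobin and TJP1 thus had opposite signs in the tables, TJP1 only with control 2 included. After correction for gene length CTNNA1, TJP1 and CTNNB1 stood at -0.080, -0.19 and -0.28 and EPCAM at 0.054. CDH2, DSP and JUP then stood at -0.37, -0.30 and -0.035, and CLDN23 at -0.69.

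**Figure D2:**
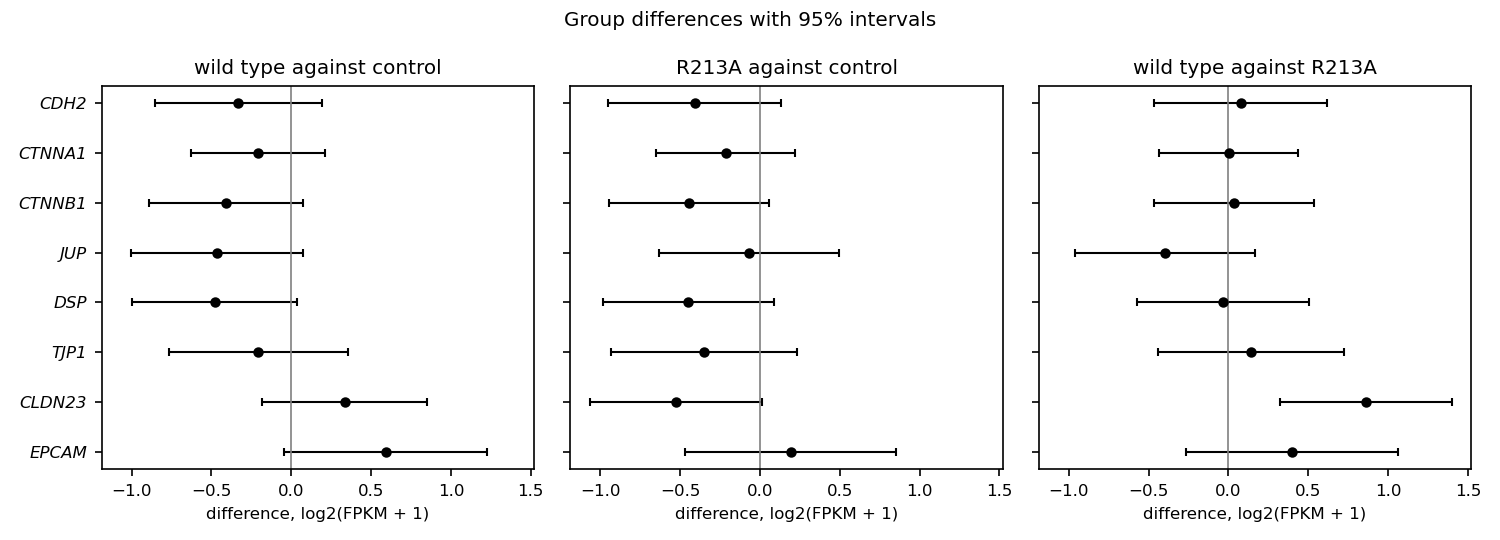
Differences of the 8 tested junction genes on the log2(FPKM + 1) scale, from the fit over 9 libraries with group and table as terms; points are estimates and bars 95% intervals that are not adjusted for the number of genes. Only the interval of CLDN23 in wild type against R213A, 0.32 to 1.40, lies wholly on 1 side of 0, and its adjusted p is 0.996.

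The third comparison set wild-type against R213A CPXM2 matrix. CLDN23 lay higher on wild-type matrix, by 0.86 ± 0.24 (SE, 3 libraries a group; 95% interval 0.32 to 1.40; unadjusted p = 0.00538, limma adjusted p = 0.996). It was 1 of 8 genes at an unadjusted p under 0.05, against 117 of 11193 genes (1.05%), and all 3 wild-type libraries stood above all 3 R213A libraries, as in 1.88% of all genes tested. limma called 0 genes (0%), and limma-voom called 0, with 100 unadjusted (0.893%). CLDN23 was the 1 gene of the 8 that lay higher in both tables, against 22.9% of all genes, at 1.26 in the smaller table and 0.46 in the larger. Lower in both were 2 of the 8, against 22.7%. Over the alternatives and left-out libraries the CLDN23 difference ran from 0.46 to 1.64 (the last on the voom scale), and its limma adjusted p from 0.00949 in the 4-library table alone, where 1 wild-type library is assumed to vary like the R213A pair, to 1. Without wild type 1 it was 0.59.

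Of the 8 genes 2 lay lower in the fit over both tables, against 51.5% of all genes. None of the other 7 genes reached an unadjusted p under 0.05 between the CPXM2 matrices. The difference was 0.40 for EPCAM, -0.40 for JUP, 0.14 for TJP1, 0.077 for CDH2, 0.036 for CTNNB1, -0.034 for DSP and 0.0023 for CTNNA1, each with an interval that includes 0 (for CTNNA1 -0.43 to 0.44). EPCAM and JUP stood at 0.96 and -0.76 in the 4-library table and at -0.070 and 0.011 in the 5-library table. A p that misses the threshold does not show that the matrices act alike.

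**Figure D3:**
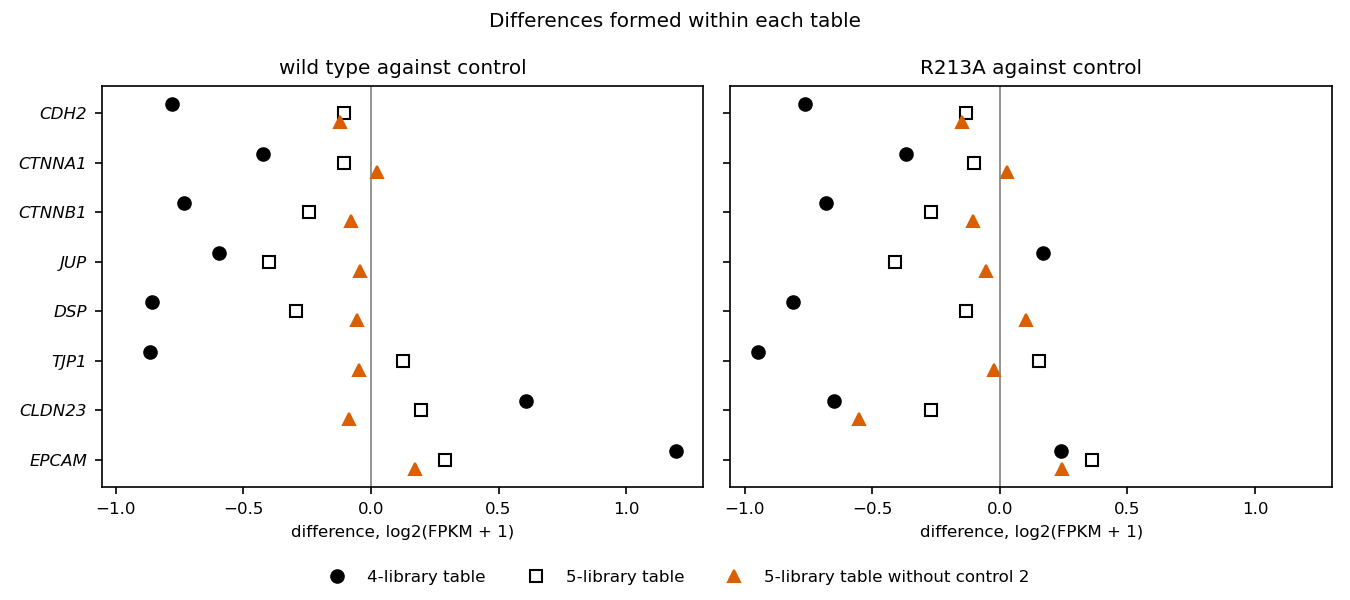
Differences of the 8 genes from control formed inside the 4-library table (filled circles), inside the 5-library table (open squares) and inside the 5-library table without control 2 (orange triangles), on the log2(FPKM + 1) scale. For DSP on wild-type matrix the 3 values are -0.86, -0.29 and -0.055. Control 3 is the only control library behind the triangles.

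Within the 4-library table, CDH2, CTNNA1, CTNNB1, DSP and TJP1 ranked the libraries alike: R213A 1 lowest, then wild type 1, then R213A 3, with control 1 highest. Of all genes tested 13% had this order. The order was more frequent among long genes, at 22.8% of 2116 genes with a listed length of at least 8000 bases and 10.7% of 9077 shorter genes. CTNNB1, TJP1, DSP and CTNNA1 are long, at 11927, 11265, 10093 and 8830 bases, and CDH2 has 4950. JUP, EPCAM and CLDN23, at 4942, 2519 and 2169 bases, had other orders: JUP was highest in R213A 1, and EPCAM and CLDN23 were highest in wild type 1. The part of gene length in the shared order was not tested beyond the length-corrected differences given above.

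Apart from control 2, the libraries of the 5-library table spanned 65.5 to 67.2 FPKM for CTNNA1, 21.1 to 22.7 for CTNNB1, 5.68 to 6.27 for JUP, 13.2 to 14.1 for TJP1 and 18.3 to 22.6 for DSP. Control 2 stood above them for JUP (1.80 times their mean), DSP, CTNNB1 (1.33 times) and CTNNA1 (1.18 times), and below them for TJP1, EPCAM (0.722 times) and CLDN23 (0.608 times). N-cadherin was the exception, at 14.7 FPKM in control 2 and 13.5 to 15.0 FPKM in the others.

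With each table centred on its own mean, the likeness of the log2 values was described over the 9 libraries. Libraries of the same table share that table and its scaling. Pearson's r of CTNNB1 was 0.978 with CTNNA1, 0.953 with DSP, 0.927 with CDH2 and 0.653 with TJP1, but 0.258 with JUP and -0.185 with EPCAM. The share of all genes with an r as high was not counted. The protein-coding genes closest to CDH2 by this measure were PCBP1, ZNF710 and WASF1 (r of 0.984, 0.984 and 0.983), and those closest to CTNNB1 were YEATS4, KIF2A and RHOT1 (0.994, 0.994 and 0.994). For EPCAM they were ALDH1L2, ADAM23 and AGA (0.992, 0.984 and 0.978), and for CLDN23 GOLGA8A, ZNF391 and CDKN2B (0.970, 0.964 and 0.952).

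To place these genes in their pathway, 167 further junction genes were taken in 10 lists, and 74 of the 167 had a mean of at least 1 FPKM. In each list and each comparison limma called 0 genes. Of 18 other cadherins only CDH24 was measured, at 0.731 (wild type 1) to 4.03 FPKM (R213A 1) in the 4-library table. In the 5-library table it was at 0.297 (wild type 3) to 0.829 FPKM (control 2). The mesenchymal cadherin gene CDH11 had 0 FPKM in all 9 libraries. Of 21 repressors and activators of E-cadherin 5 were measured, led by KLF4 with a mean of 32.9 FPKM. TWIST1 was at 0 FPKM in all libraries, and the epithelial regulators GRHL2, ESRP1 and ELF3 had highest values of 0.0269, 0.20 and 0.0205 FPKM. These low genes were chosen after their values were seen.

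Of the 12 measured further catenins and adherens junction adaptors 10 lay lower on wild-type than on control matrix (53.7% of all genes), with a median of -0.34, and 8 on R213A matrix (51.9% of all genes), with a median of -0.19. These medians were -0.078 and -0.060 in the 5-library table, and -0.048 and -0.019 there without control 2. CTNNAL1, an alpha-catenin relative, was the most abundant with a mean of 65.7 FPKM. LIMA1, an actin-binding partner of alpha-catenin, had the smallest p of the list in both comparisons, at -0.61 ± 0.24 on wild-type and -0.58 ± 0.25 on R213A matrix (SE, limma adjusted p = 0.757 and 0.690). It was at 42.8 FPKM in control 1 and 19.0 in wild type 1, but at 84.8 and 54.3 FPKM in control 2 and 3 against 52.1 and 54.0 FPKM in wild type 2 and 3, and in that table control 2 alone stood apart. Between wild type and R213A, CTNNBIP1, an inhibitor of beta-catenin binding to TCF factors, had the smallest p of the list, at -0.69, with -1.46 in the smaller table and -0.057 in the larger.

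Desmosome genes were present without a common direction. DSG2, a desmosomal cadherin with a mean of 57.4 FPKM, was at 78.4 to 114 FPKM in the 5-library table and at 8.82 to 31.3 FPKM in the other, so that the tables did not overlap. Of 7 measured desmosome genes 4 were lower on wild-type and 5 on R213A matrix, against 53.7% and 51.9% of all genes. Their medians were -0.081 and -0.12, and -0.044 and 0.0030 in the 5-library table without control 2. PPL, periplakin, differed by -0.72 on wild-type matrix and PKP3, a plakophilin, by 0.56 on R213A matrix (limma adjusted p = 0.757 and 0.690). PKP3 stood at 0.88 in the smaller table, 0.19 in the larger and -0.0073 there without control 2. PPL was at 0.855 FPKM in wild type 1 against 4.39 in control 1, and at 2.74 to 2.79 FPKM in wild type 2 and 3 against 3.22 and 4.21 FPKM in control 2 and 3.

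Tight junction genes lay lower in 13 of 14 measured genes on wild-type matrix (53.7% of all genes) and in 12 of 14 on R213A matrix (51.9% of all genes). Their medians were -0.17 in both comparisons. In the 5-library table without control 2 these medians were -0.024 and -0.0094. PALS1, a polarity scaffold and the most abundant of the list (mean 16.0 FPKM), had the smallest p on wild-type matrix at -0.55, with -1.46 in the smaller table, -0.098 in the larger and -0.028 there without control 2. PARD6A, another polarity protein, had the smallest p on R213A matrix at 0.71, and the same 3 values were 1.42, 0.029 and -0.12. Of the 4 measured claudins CLDN1 was the most abundant, at 93.6 to 94.6 FPKM in 4 libraries of the 5-library table, 49.7 FPKM in control 2 and 9.46 to 46.6 FPKM in the 4-library table. Over both tables the claudins lay higher on wild-type than on R213A matrix in 4 of 4 genes, with a median of 0.33. Of all genes tested 5431 of 11193 lay higher. In the 5-library table CLDN3 and CLDN12 stood at -0.16 and -0.20 in this comparison, CLDN1 at 0.0067 and CLDN15 at 0.23. CLDN15, the claudin of smallest p in both comparisons with wild-type matrix, differed by 0.67 from control (limma adjusted p = 0.757) and by 0.53 from R213A (limma adjusted p = 0.996). From control it differed by 1.27 in the smaller table, 0.38 in the larger and -0.031 there without control 2. CLDN12 was the claudin of smallest p of R213A against control, at -0.45, and at 0.19 in the larger table without control 2. In the 5-library table the median of the claudins between the CPXM2 matrices was -0.074. On wild-type against control matrix it was 0.46 over both tables, 1.06 in the smaller, 0.15 in the larger and -0.018 there without control 2.

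Of the connexins and pannexins 4 of 13 were measured, and GJC1 differed by -0.55 on wild-type matrix (limma adjusted p = 0.757), but by 0.023 in the 5-library table without control 2. Among EPCAM partners and cadherin proteases 8 of 12 were measured. On each CPXM2 matrix 4 lay higher and 4 lower than on control, where 53.7% and 51.9% of all genes lay lower. They were not all the same genes: NCSTN stood at 0.095 on wild-type and -0.13 on R213A matrix, and APH1A at -0.099 and 0.066. SPINT2, an inhibitor of matriptase, which cleaves EPCAM, had a mean of 61.3 FPKM. ADAM17, a sheddase, was at 0.213 (R213A 1) to 1.69 FPKM (control 1) in the 4-library table. In the 5-library table it was at 5.74 (R213A 2) to 6.15 FPKM (control 2).

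The regulators and targets of beta-catenin were likewise without a call. Of the destruction complex and its partners 8 of 12 measured genes lay lower on each CPXM2 matrix, against 53.7% and 51.9% of all genes, with medians of -0.19 and -0.16. In the 5-library table these medians were -0.072 and -0.046, and without control 2 they were -0.017 and 0.016. FBXW11, a ubiquitin ligase subunit that marks beta-catenin for degradation, had the smallest p in both comparisons, at -0.45 and -0.54 (limma adjusted p = 0.757 and 0.690), and at -0.015 and 0.030 in the 5-library table without control 2. Of the beta-catenin/TCF targets 5 of 7 lay lower on each matrix, against the same 53.7% and 51.9% of all genes. Their medians were -0.14 and -0.16, and -0.024 and -0.087 in the 5-library table without control 2. MYC was at 40.3 FPKM in R213A 1 and 54.2 to 68.9 FPKM in the other 8 libraries. CCND1, cyclin D1, the target of smallest p on wild-type matrix, differed by -0.36, with -1.29 in wild type 1 against control 1 and 0.10 in the 5-library table. FZD7, a Wnt receptor, had the smallest p on R213A matrix, at -0.38.

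**Figure D4:**
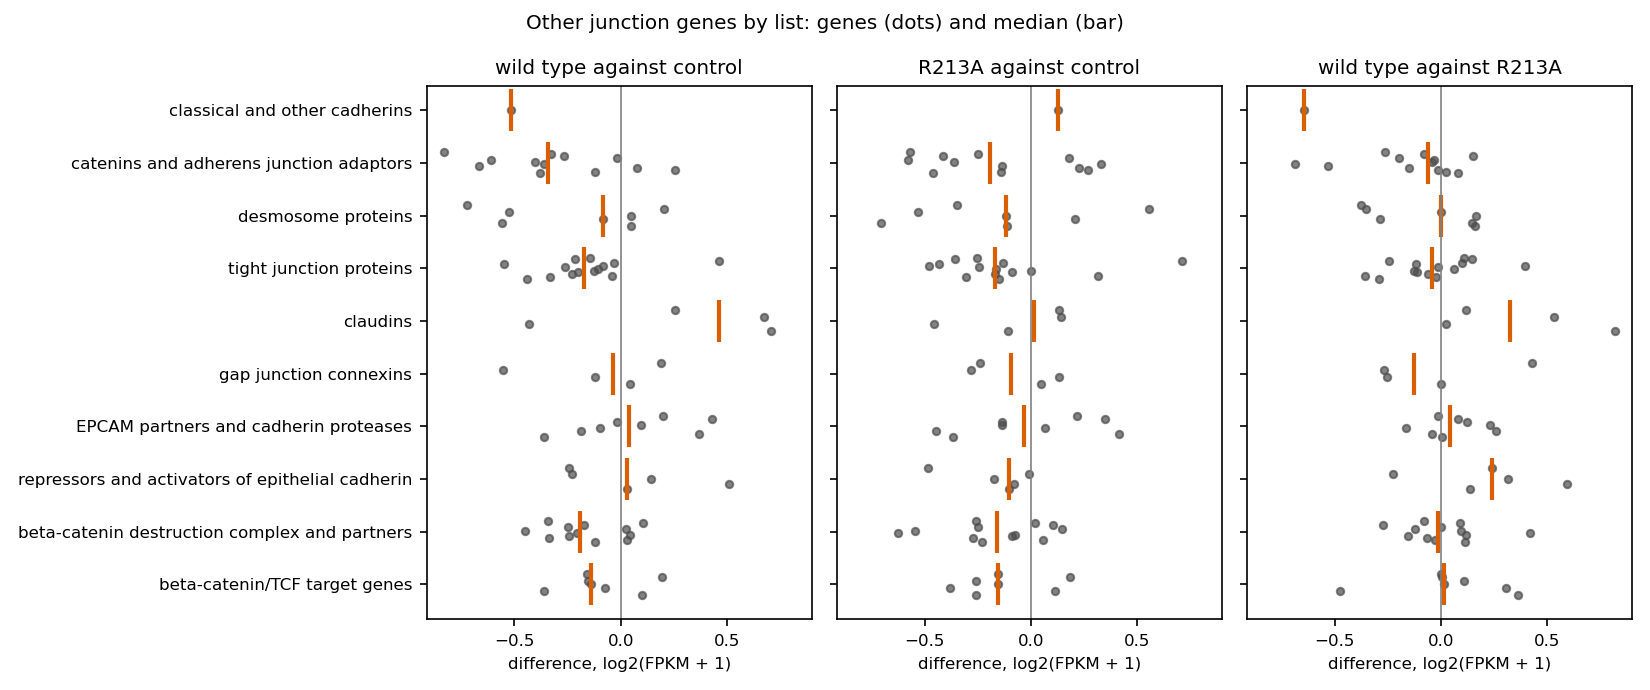
Differences of 74 further junction genes on the log2(FPKM + 1) scale in the 3 comparisons, by list; each dot is a gene (spread vertically by name only) and the orange bar is the list's median. The adaptors of adherens junctions have a median of -0.34 in wild type against control, and the claudins 0.46. In the 5-library table without control 2, where control 3 is the only control, these medians become -0.048 and -0.018.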

How the data were processed

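RNA of 9 libraries was measured by sequencing. The authors deposited FPKM per gene in 2 tables. Per the labels' protocols the kit was Illumina TruSeq stranded mRNA, and per the submitters' processing notes the build was hg38 and bcl2fastq was used. No aligner, counter or strand setting is given in the sources used here. The gene length the authors listed (unit: other, bases) equalled the exon union of GENCODE 29 for the 10 genes. FPKM times listed length gave whole reads in 100% of values above 0, within 0.01 reads.

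Values were compared as log2(FPKM + 1) with limma 3.58.1 in R 4.3.3, for 11193 genes (mean FPKM 1 or more), in a single fit of 9 libraries with group and table as terms, a mean-variance trend and 5 residual degrees of freedom. Adjustment was by Benjamini-Hochberg over all genes tested, at a threshold of 0.05. The procedure was tested on simulated data. Genes, lists and tests were chosen with earlier results of these data known. The text names the 10 genes, and from each list part of those with the smallest p per comparison or the highest mean; the genes closest to a member were taken by correlation. The E-box search, designed for the cadherins, was widened to all members with a promoter entry. Protein identities were not analysed here. The 25 alternatives changed pseudocount, filter, scaling, table and block terms, spread model, length correction and libraries.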

Additional observations from a re-analysis of the deposited data

How the results depend on the processing

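No junction gene was called in the pooled fit, and limma called 0 genes in each comparison in all fits that left out 1 library (range 0 to 0), with 73 (without wild type 1) to 1378 (without control 3) genes at an unadjusted p under 0.05 in wild type against control, 99 (without R213A 1) to 1123 (without R213A 2) in R213A against control and 39 (without wild type 1) to 774 (without R213A 2) between the CPXM2 matrices. Calls arose in small or reweighted fits: in the 4-library table alone 775 genes for wild type and 184 for R213A, each set against control, and 327 between the CPXM2 matrices, then, for the wild-type and the R213A contrast with control in that order, 14 and 16 in the 5-library table with control 2 left out, 6 and 7 with library weights, whose estimation stopped before full convergence, and 1 and 1 without a filter, with 30368 genes tested. The 4-library table alone takes the spread of single libraries from the R213A pair. There CLDN23 and CDH24 passed between wild type and R213A (1.26 and -1.20) and PPL between wild type and control (-1.54). CDH24 reached its mean of 1.33 FPKM through R213A 1 (4.03), R213A 3 (2.15) and control 1 (2.35). It was at 0.297 to 0.829 FPKM in the other libraries. It thus entered the test largely through the group where it is high, and its difference from R213A is a description. The cause of the calls in these fits was not tested. The filter of a mean of at least 5 FPKM leaves out CLDN23 and EPCAM. Depth limits CDH1 and CDH3, with 0 to 19 reads.

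Signs of some differences turned. In the 5-library table alone the turned values were 0.13 for TJP1 and 0.10 for CCND1 in wild type against control, 0.15 for TJP1 and -0.19 for CDH24 in R213A against control, and -0.0037 for CTNNA1, -0.070 for EPCAM, 0.011 for JUP and -0.027 for TJP1 in wild type against R213A. With control 2 left out of that table, the last 4 were the same values, CLDN15, CLDN23, CTNNA1, GJC1 and KLF4 stood at -0.031, -0.085, 0.024, 0.023 and -0.022 in wild type against control, and CDH24, CLDN12, CTNNA1, DSP, FBXW11, GJC1, PARD6A, PKP3 and ZEB1 at -0.099, 0.19, 0.028, 0.10, 0.030, 0.15, -0.12, -0.0073 and 0.016 in R213A against control. With library weights CLDN23 stood at -0.030 in the first comparison, CDH24, CLDN12, DSP and GJC1 at -0.076, 0.086, 0.019 and 0.061 in the second and CDH2, CTNNA1, EPCAM and TJP1 at -0.0014, -0.0095, -0.057 and -0.0059 in the third. In the 4-library table alone JUP stood at 0.17 in R213A against control, and CDH2, CTNNA1 and CTNNB1 at -0.017, -0.057 and -0.051 in wild type against R213A. In that last comparison CTNNA1 stood at -0.014 with median-of-ratios scaling, -0.018 with the length correction and -0.030 with only the compared groups, CTNNB1 at -0.014 with only the compared groups, and DSP at 0.32 without the table term and 0.079 with limma-voom. Leaving out 1 library gave ranges that cross 0 for TJP1 and CCND1 in wild type against control (-0.43 to 0.14 and -0.53 to 0.049), for CDH24, EPCAM, GJC1, JUP and TJP1 in R213A against control (-0.11 to 0.47, -0.062 to 0.46, -0.48 to 0.017, -0.22 to 0.23 and -0.62 to 0.12) and for CDH2, CTNNA1, CTNNB1, DSP and EPCAM in wild type against R213A (-0.13 to 0.24, -0.064 to 0.085, -0.12 to 0.16, -0.19 to 0.14 and -0.030 to 0.65).

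Whether the replicate number pairs the samples cannot be told from these values. Deviations from the group means of same-numbered libraries correlated from -0.702 (wild type 3 and R213A 3) to 0.843 (wild type 2 and R213A 2). Not every library correlated best with its own number. The tables were not centred for this check, and number 3 is split between them. Between groups, pairs within a table correlated positively and pairs across the tables negatively, so the signs followed the tables. With the replicate block limma called 0 genes in each comparison, and DSP turned to 0.16 in wild type against R213A.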
